A study of Drosophila melanogaster with 9 samples.

Results

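Crosslinks of the RNA-binding protein Mei-P26 to the transcripts of spz and of 7 further genes of the Toll pathway were examined in cultured Drosophila Schneider 2 (S2) cells. The 8 genes, spz, Tl, Myd88, tub, pll, cact, dl and Dif, were taken by symbol and stand among 6780 genes with at least 1 crosslinked cDNA in the 9 libraries. All 8 had at least 1 cDNA, 119 in total, of which spz held 66.

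The Toll pathway carries a signal from outside the cell to the nucleus. Spätzle, the product of spz, is a secreted cytokine that binds the receptor Toll once a protease has cleaved it, and the adaptors Myd88 and Tube with the kinase Pelle then cause the inhibitor Cactus to be degraded, which releases the NF-κB factors Dorsal and Dif. The pathway sets up the dorsoventral axis of the embryo and drives the immune response to fungi and Gram-positive bacteria, and S2 cells, which resemble the phagocytic blood cells (hemocytes) of the fly, are widely used to study it. Mei-P26 is a TRIM-NHL protein of the germline and nervous system whose C-terminal NHL domain contacts RNA.

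The libraries were made by iCLIP2, in which UV light joins protein to RNA, the protein is pulled down, and reverse transcription stops next to the joined nucleotide, so that each distinct cDNA marks one crosslink. In 3 libraries the bait was FLAG-tagged full-length Mei-P26, in 3 it was the FLAG-tagged NHL domain alone (amino acids 908 to 1206), and 3 control libraries came from non-transfected cells. Both baits were expressed from transfected plasmids (15 µg DNA per dish, 48 h), and all libraries came from S2R+ cells, a line of S2 origin. The extracts for all 9 libraries were digested with RNase I (10 U) before the pull-down. The study describes the Mei-P26 mRNA of these cells as low, and its protein level was not measured here. The series design calls the libraries biological replicates, and both it and the study's methods give the controls as non-transfected cells, although a treatment text shared by all samples names substituted proteins as control.

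Full-length libraries held 14685, 1878 and 21831 cDNAs, NHL libraries 4321, 7947 and 40032, and control libraries 1252, 1160 and 849. Values were therefore expressed as cDNAs per 10000 cDNAs of the library. In the controls together, a count of 0 still allows a rate of up to 9.20 per 10000 (3 counts over 3261 cDNAs), against 0.781 in the full-length and 0.574 in the NHL libraries. This limit and the intervals given below cover counting error only. A rate of cDNAs follows the amount of an RNA as well as its binding, and the amount of RNA was not measured here. Of 10 hemocyte markers, 6 had cDNAs (372 in all, led by Col4a1 with 164, vkg with 126 and srp with 39), while Hml, NimC1, He and lz were at 0. Among 8 markers of the germline and ovarian soma, aub alone was detected, with 2 cDNAs.

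Spätzle is the ligand of the pathway, and its gene (FBgn0003495, chromosome arm 3R, minus strand) was the most often crosslinked of the 8. Full-length libraries held 17, 2 and 20 spz cDNAs, NHL libraries 1, 2 and 23, and control libraries 1, 0 and 0. These counts correspond to 11.6, 10.6 and 9.16 per 10000 with full-length Mei-P26, to 2.31, 2.52 and 5.75 with the NHL domain, and to 7.99, 0 and 0 in the controls. All 3 full-length libraries lay above all 3 NHL libraries and above all 3 controls, whereas the NHL libraries and the controls overlapped. The highest control value rests on a single cDNA.

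The mean spz rate was 10.5 ± 1.22 per 10000 with full-length Mei-P26, 3.53 ± 1.93 with the NHL domain and 2.66 ± 4.61 in the controls (SD, n = 3 each). Full-length libraries differed from NHL libraries with a two-sided exact permutation p of 0.1, and from controls also with an exact p of 0.1, which is the smallest value that 3 libraries against 3 can give. The exact permutation p between NHL libraries and controls was 0.6. Separation of this kind was not rare. Among the 1869 genes with at least 10 cDNAs, every full-length library lay above every NHL library in 6.37% and above every control in 11.9%, and among the 544 genes with at least 30 cDNAs the first of these shares was 9.56%.

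With the libraries of a group pooled, spz reached 10.2 per 10000 with full-length Mei-P26 (exact Poisson 95% interval 7.22 to 13.9), 4.97 with the NHL domain (3.25 to 7.28) and 3.07 in the controls (0.0776 to 17.1). The pooled ratio of full-length over NHL was 2.04, with a counting interval of 1.21 to 3.50. One library weighed on this ratio, since NHL replicate 3 held 23 of the 26 NHL cDNAs and the ratio was 4.15 without it. At the full-length rate the controls would have held 3.31 spz cDNAs and at the NHL rate 1.62, and they held 1. A control level of spz below that of either bait was thus not detectable at this depth.

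**Figure D1:**
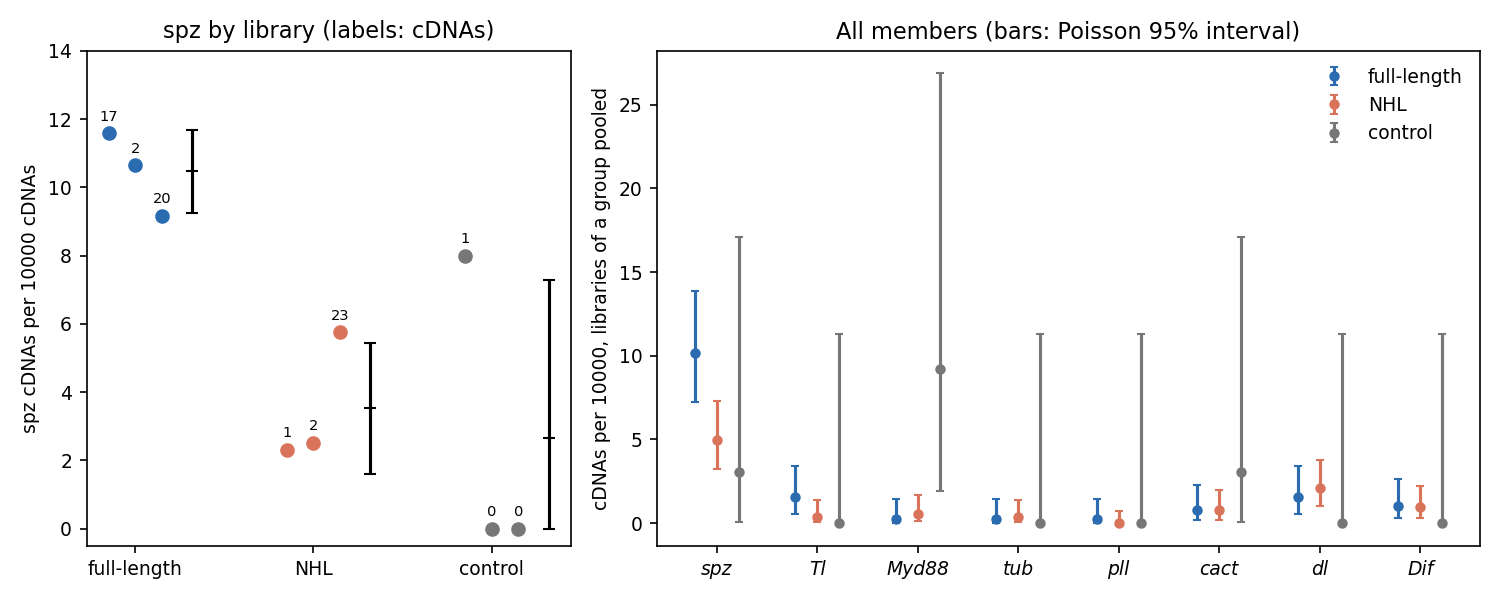
Left, spz cDNAs per 10000 cDNAs of the library for each full-length, NHL and control library, with the number of cDNAs above each point and the mean ± SD beside each group (lower bar ended at 0 for the control). Right, pooled rate of each of the 8 genes in the 3 groups, with exact Poisson 95% intervals. The full-length spz values (9.16 to 11.6) lie above the NHL values (2.31 to 5.75), and the control intervals reach 11.3 per 10000 even where no cDNA was counted.

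Across all genes tested, the difference between the baits on spz did not pass the threshold. The log2 fold change of spz for full-length over NHL was 1.22 (SE 0.64, 95% interval -0.04 to 2.47), with an adjusted p of 0.445 (edgeR's quasi-likelihood test, Benjamini-Hochberg adjustment over 1869 genes). The same test gave 1.72 (SE 1.38, adjusted p = 0.733) for full-length over control and 0.50 (SE 1.54, adjusted p = 0.859) for NHL over control. It called 2.51% of all genes between the baits (3 higher and 44 lower with full-length Mei-P26), 0.107% between full-length and control (2 lower with full-length Mei-P26, whereas TMM scaling called 3 and DESeq2 10, all higher), and 0% between NHL and control, where 51 genes had an unadjusted p below 0.05 and DESeq2 called 69. Of the 8 Toll genes, spz and dl alone had the 10 cDNAs needed for this test, and 0 of these 2 were called in any comparison. The median log2 fold change of all tested genes was 0.30 between the baits, so that spz lay 1.22 against a general shift of 0.30.

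**Figure D2:**
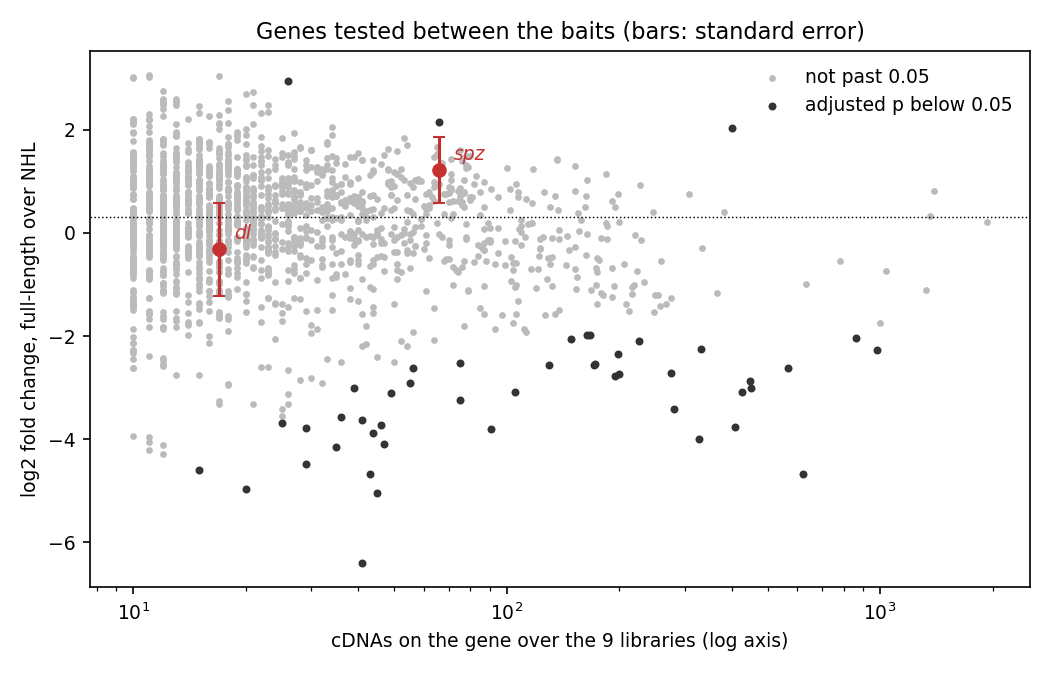
Log2 fold change of full-length over NHL against the number of cDNAs on the gene over the 9 libraries (log axis) for the 1869 tested genes; black points passed an adjusted p of 0.05 in edgeR's quasi-likelihood test, bars on spz and dl are standard errors, and the dotted line is the median of 0.30. The value of spz is 1.22 and that of dl is -0.32, both among genes that were not called.

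By number of cDNAs, spz ranked 138 of 5481 genes with full-length Mei-P26, 328 of 5777 with the NHL domain and 530 of 1559 in the controls, where it shares this rank with every gene of 1 cDNA. The genes whose rates followed spz most closely over the 9 libraries, by Pearson r of log2 (rate + 1) among 543 genes with at least 30 cDNAs, were pnt (r = 0.979), brat (r = 0.965) and fs(1)h (r = 0.964). pnt encodes an ETS transcription factor of receptor tyrosine kinase signalling, brat encodes another TRIM-NHL protein, and fs(1)h encodes a bromodomain protein. Full-length libraries held 11, 2 and 15 cDNAs of pnt, NHL libraries 1, 3 and 16, and controls 1, 0 and 0. In the controls brat had 3, 0 and 0 cDNAs and fs(1)h 1, 0 and 0, so that each of these genes, like spz, had control cDNAs in replicate 1 alone. There 1 cDNA is a rate of 7.99 per 10000, and its weight in r was not tested. The points behind each r share the same libraries and their depths, and the likeness is a description only.

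About as many crosslinks of spz fell in the last 100 nt of the gene as in all the rest, with either bait. Distances are given from the annotated 3′ end of the gene, whose annotated length is 5081 nt. With full-length Mei-P26, 19 of 39 cDNAs lay within 100 nt of this end (48.7%, exact binomial 95% interval 32.4 to 65.2), and with the NHL domain 15 of 26 (57.7%, 36.9 to 76.6). By library, this stretch took 9 of 17 cDNAs in full-length replicate 1, 10 of 20 in full-length replicate 3 and 14 of 23 in NHL replicate 3. Of the libraries with 1 or 2 spz cDNAs, it took 0 of 2 in full-length replicate 2, 1 of 1 in NHL replicate 1, 0 of 2 in NHL replicate 2 and 0 of 1 in control replicate 1. The intervals of the baits overlapped widely. Among genes with at least 10 cDNAs of a bait, the median share within 100 nt of the 3′ end was 12.5% with full-length Mei-P26 (704 genes) and 10.0% with the NHL domain (698 genes). The spz share exceeded that of 85.7% of these genes with full-length Mei-P26 and that of 92.1% with the NHL domain. The stretch was chosen after the positions of spz were seen, so that a high standing of spz on it could be foreseen. Over the wider last 20% of the gene spz did not stand out in this way with full-length Mei-P26. It had 24 of 39 full-length cDNAs there (61.5%, 44.6 to 76.6) and 20 of 26 NHL cDNAs (76.9%, 56.4 to 91.0), against medians over the same genes of 66.7% and 62.5%, and its share exceeded that of 42.9% of genes with full-length Mei-P26 and of 76.1% with the NHL domain.

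Most of these crosslinks fell between 30 and 74 nt from the end, with 17 full-length and 12 NHL cDNAs. The positions there were single nucleotides with few cDNAs each. Over the whole gene 54 distinct positions were crosslinked, 60 of 63 entries by library and position held 1 cDNA, and the highest count at a position in 1 library was 2. Of the 7 positions found in 2 or more libraries, 5 were found with both baits. Positions 27065052 and 27065053 on 3R (62 and 63 nt from the end) were crosslinked in both deeper full-length libraries and in NHL replicate 3, and position 27065023 (33 nt) held 2 cDNAs in full-length replicate 3 and 1 in NHL replicate 3.

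The authors' peak caller placed its spz peaks in the same stretch. Peaks, which are positions with more cDNAs nearby than random placement within the gene would give, numbered 6 in full-length replicate 1, 2 in full-length replicate 3 and 5 in NHL replicate 3, and no other library had one. Joined into clusters, they covered chr3R:27065036-27065054 in full-length replicate 1 (19 nt, 7 cDNAs, 46 to 64 nt from the end), chr3R:27065022-27065023 in full-length replicate 3 (2 nt, 3 cDNAs, 32 to 33 nt) and chr3R:27065021-27065029 in NHL replicate 3 (9 nt, 6 cDNAs, 31 to 39 nt). The cluster of full-length replicate 3 thus lay inside that of NHL replicate 3, while that of full-length replicate 1 began farther from the end. Peaks are counted within a library and were found only in the 3 libraries with 17 or more spz cDNAs.

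Clusters that recur were uncommon. Of 799 genes with a cluster in at least 1 full-length library, 118 had one in 2 or more, 88 of these also had one in an NHL library, and 71 of the 88, spz among them, had none in a control library. The controls held 1 spz cDNA in all, too few for a cluster, so that its absence there carries no information for spz. With each bait set against the clusters of the other, 19 of 39 full-length spz cDNAs lay within 50 nt of the NHL cluster (48.7%, 32.4 to 65.2) and 15 of 26 NHL cDNAs lay within 50 nt of a full-length cluster (57.7%, 36.9 to 76.6). Within 20 nt these shares were 28.2% and 46.2%. The cDNAs counted at 50 nt are the same as those within 100 nt of the 3′ end, and the share over other genes was not computed. The one control cDNA on spz, 154 nt from the end, was within 50 nt of no cluster.

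**Figure D3:**
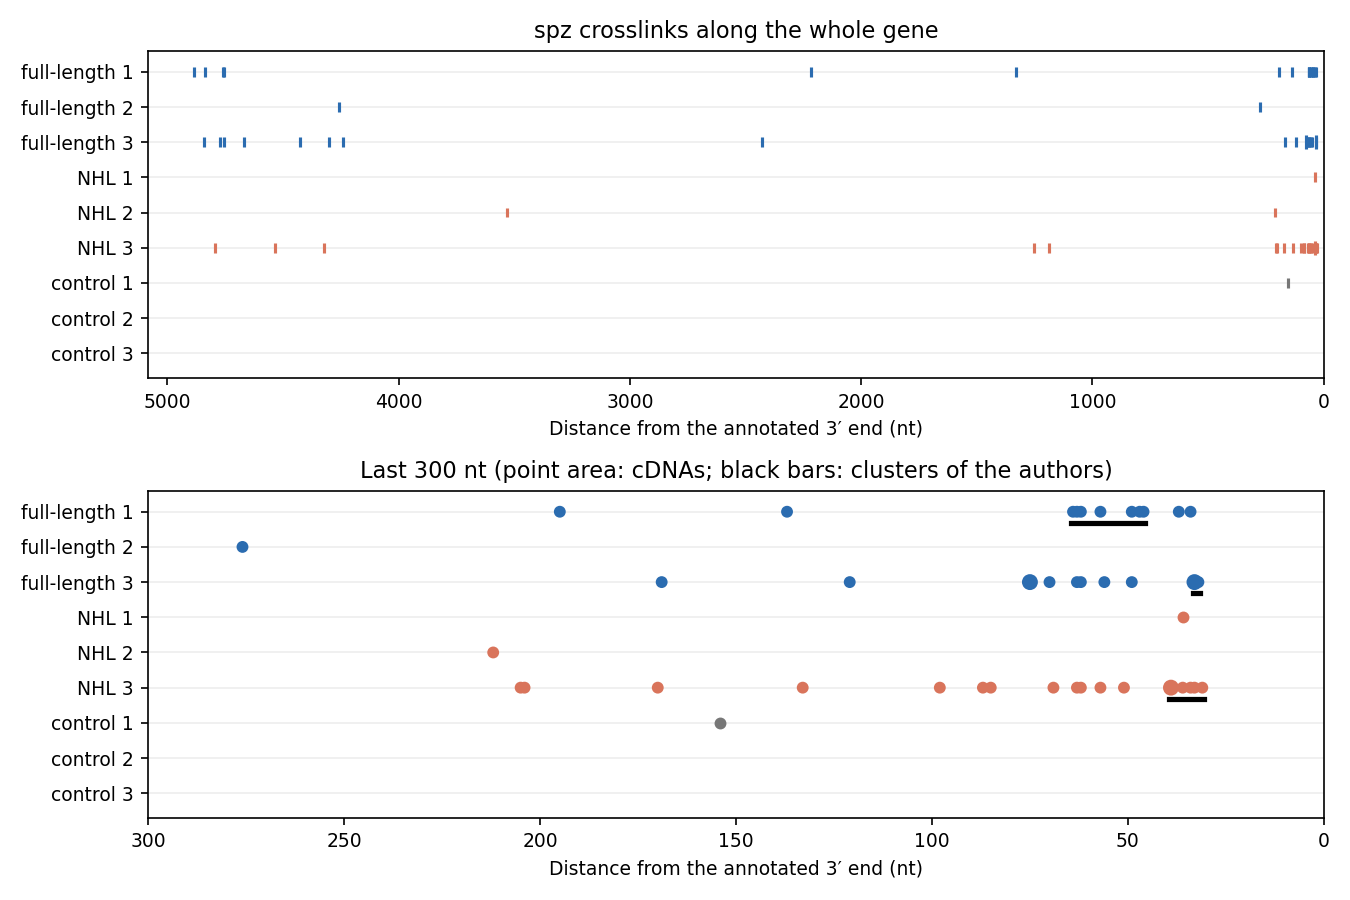
Each crosslinked position of spz in each library, by distance from the annotated 3′ end in nt, over the whole gene (top) and the last 300 nt (bottom, point area in proportion to cDNAs, black bars for the clusters called by the authors). Within 100 nt of the 3′ end lie 19 of 39 cDNAs with full-length Mei-P26 and 15 of 26 with the NHL domain, and the full-length libraries hold 12 cDNAs in the first 900 nt against 3 in the NHL libraries.

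A second group of spz crosslinks lay near the 5′ end. In the first 900 nt of the gene, full-length libraries held 4, 1 and 7 cDNAs, NHL libraries 0, 0 and 3, and controls none. Full-length Mei-P26 thus had 12 of 39 cDNAs there (30.8% within the first 20% of the gene, 17.0 to 47.6) and the NHL domain 3 of 26 (11.5%, 2.45 to 30.2), and these intervals overlap. The median share in the first 20% was 5% over 704 genes with full-length Mei-P26 and 6.67% over 698 genes with the NHL domain, and spz lay above 96.3% of genes with the first bait and above 70.1% with the second. This stretch, too, was chosen after the positions of spz were seen, so that these standings are a description and no test. No peak was called in this stretch. The positions were spread over 4239 to 4884 nt from the 3′ end, and no single nucleotide recurred between libraries. Neighbouring nucleotides did, with a cDNA at 4754 nt in full-length replicate 3 and cDNAs at 4755 and 4757 nt in full-length replicate 1. A test over libraries of how the baits divide spz between its ends could not be run, since 3 libraries alone had 5 or more spz cDNAs.

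The study had already listed spz among genes where peaks of both baits overlap, as one without a Mei-P26 motif or U-rich sequence near the crosslink. It also cloned a fragment of the spz 3′ untranslated region behind a luciferase gene. The study reported that full-length Mei-P26 activated this reporter, and that substitutions impairing RNA binding blunted the effect. The gene-specific parts of its 2 cloning primers, of 22 and 20 bases, are shown because they mark the ends of the spz sequence that was tested apart from the rest of the gene, and how they lie relative to the crosslinks was not determined here:
spz F: cttccacgtctaatgcctaagc
spz R: gctggcatgtacttgcatac

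Beyond the ligand, crosslinks were few. The 7 other genes together held 22 cDNAs in full-length libraries, 27 in NHL libraries and 4 in controls, which is 5.73 per 10000 (3.59 to 8.68), 5.16 (3.40 to 7.51) and 12.3 (3.34 to 31.4). In the full-length libraries spz alone, with 39 cDNAs, exceeded these 7 genes together, whereas in the NHL libraries it did not (26 against 27).

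The receptor gene Tl (FBgn0262473, 3R) had 3, 0 and 3 cDNAs in full-length libraries, 0, 1 and 1 in NHL libraries and none in controls. The full-length and NHL groups overlapped, with 1.14 ± 1.04 and 0.503 ± 0.666 per 10000 (SD, n = 3 each, exact permutation p = 0.5). The pooled ratio of full-length over NHL was 4.09, with a counting interval of 0.731 to 41.4. Of the 43363 nt of the annotated gene, the last 20% held 5 of 6 full-length cDNAs and both NHL cDNAs. Shares in the last 20%, here and for the genes below, are to be read against the medians of 66.7% and 62.5% given above for genes with at least 10 cDNAs of the bait. A cluster was called in full-length replicate 1 at 26841641 (1 nt, 2 cDNAs, 762 nt from the 3′ end), and full-length replicate 3 had 1 cDNA slightly closer to the end, at 731 nt.

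Of the adaptors that join at the receptor, Myd88 (FBgn0033402, 2R) had as many cDNAs in the shallow controls as with the NHL domain. Its cDNAs were 1, 0 and 0 in full-length libraries, 0, 0 and 3 in NHL libraries and 0, 1 and 2 in controls. The pooled control rate was 9.20 per 10000 (1.90 to 26.9), against 0.260 with full-length Mei-P26 and 0.574 with the NHL domain. The pooled ratio to control was 0.0283 for full-length Mei-P26 (counting interval 0.00054 to 0.353) and 0.0624 for the NHL domain (0.00835 to 0.466). Over libraries the groups overlapped, and the exact permutation p was 0.4 for either bait. The only Myd88 cluster was in control replicate 3, at 888 to 889 nt from the 3′ end (2 cDNAs), and NHL replicate 3 had 1 cDNA at 898 nt.

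tub (FBgn0003882, 3R), which encodes the adaptor Tube that links Myd88 to the kinase, had 1 cDNA in full-length replicate 1 and 2 in NHL replicate 3. All 3 lay in the last 20% of the gene, the NHL cDNAs at 56 and 68 nt and the full-length cDNA at 184 nt from its 3′ end. pll (FBgn0010441, 3R), the gene of the kinase Pelle, had a single cDNA, in full-length replicate 1 in the middle of the gene. No cluster was called on either gene, and neither had a control cDNA. By the limit of 3 counts given above, a control rate of up to 9.20 per 10000 remains possible for both, and the exact Poisson interval reaches 11.3.

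cact (FBgn0000250, 2L), the gene of the inhibitor Cactus, had 2, 0 and 1 cDNAs in full-length libraries, 0, 0 and 4 in NHL libraries and 0, 0 and 1 in controls. Its groups overlapped in every comparison (exact permutation p = 0.7 between the baits and 1 for either bait against control). The NHL cDNAs all lay in the last 20% of the gene, between 120 and 1671 nt from the 3′ end, but came from 1 library. The 3 full-length cDNAs were spread over the gene, at 27, 5963 and 11573 nt from its end. The control cDNA was in the middle, at 6951 nt.

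Among the NF-κB factors, dl (FBgn0260632, 2L), the gene of Dorsal, was the second most crosslinked of the 8 genes. Full-length libraries held 2, 0 and 4 cDNAs, NHL libraries 1, 0 and 10, and controls none. The means were 1.06 ± 0.952 per 10000 with full-length Mei-P26 and 1.60 ± 1.39 with the NHL domain (SD, n = 3 each, exact permutation p = 0.6), and the groups overlapped. The log2 fold change of dl for full-length over NHL was -0.32 (SE 0.89, adjusted p = 0.917 by edgeR's quasi-likelihood test after Benjamini-Hochberg adjustment). Against controls at 0 no useful bound can be set, since 3 counts in the controls would exceed the rate of either bait.

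Within 100 nt of the 3′ end of dl lay 1 of 6 full-length cDNAs (16.7%, 0.421 to 64.1) and 3 of 11 NHL cDNAs (27.3%, 6.02 to 61.0). These wide intervals hold the medians of 12.5% and 10.0% given above for genes with at least 10 cDNAs of the bait. Full-length replicate 1 had a cDNA at 40 nt, and NHL replicate 3 had cDNAs at 42, 43 and 57 nt. The rest were farther off. Of 6 full-length cDNAs 5 lay in the last 20% of the gene, 3 of them in replicate 3 between 1885 and 1972 nt from the end, while of 11 NHL cDNAs 5 lay in the last 20% and 3 in the first. No dl peak was called in any library. The adjacent NHL cDNAs at 42 and 43 nt had a false discovery rate of 0.109 in the authors' table.

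Dif (FBgn0011274, 2L), the gene of the second NF-κB factor, had 0, 0 and 4 cDNAs in full-length libraries, 1, 0 and 4 in NHL libraries and none in controls. The baits overlapped, with 0.611 ± 1.06 and 1.10 ± 1.16 per 10000 (SD, n = 3 each, exact permutation p = 0.7). Every full-length cDNA came from 1 library. These 4 cDNAs lay in the middle of the gene, between 4266 and 6867 nt from the 3′ end, where a cluster of 2 cDNAs was called at 4266 nt, whereas 3 of 5 NHL cDNAs lay in the last 20%, at 105, 171 and 606 nt.

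**Figure D4:**
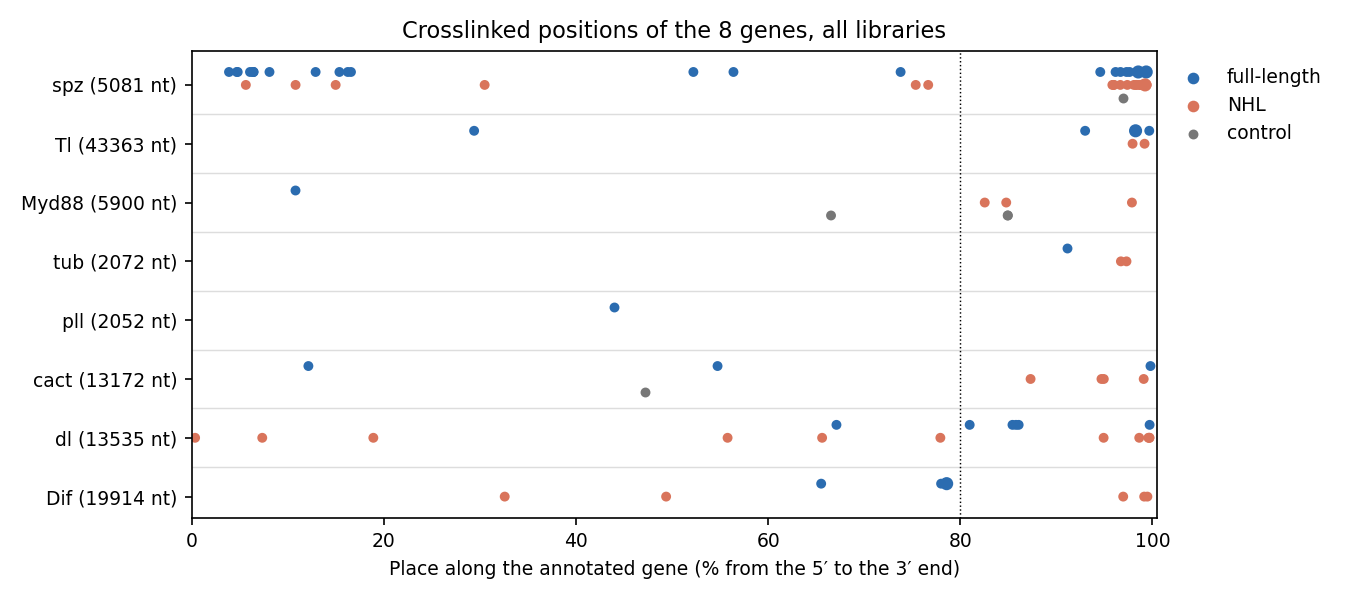
Crosslinked positions of the 8 genes by group, as percent of the annotated gene from the 5′ to the 3′ end, with the gene length beside each name, point area in proportion to cDNAs, and a dotted line where the last 20% begins. Positions of spz fill both ends of the gene, those of Tl and tub lie mostly in the last 20%, and the 4 full-length cDNAs of Dif lie between 65.5% and 78.6% of the gene.

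The wider pathway was examined with 5 lists of 64 genes, of which 38 had a cDNA and 10 had enough to be tested. Of these 10, 0 were called by edgeR's quasi-likelihood test in any comparison, and 1 had an unadjusted p below 0.05 in each, as had 66 of all 1869 genes for full-length over control, 51 for NHL over control and 222 between the baits. The lowest adjusted p of edgeR's quasi-likelihood test was 0.733 for full-length over control, 0.758 for NHL over control and 0.334 between the baits. Their median log2 fold change between the baits was 0.26, near the 0.30 of all tested genes.

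Upstream of spz, among pattern recognition proteins and the proteases that lead to its cleavage, 6 of 15 genes had cDNAs, 19 in all, led by GNBP3 with 6, PGRP-SA with 5 and grass with 4. Of 12 further Spätzle and Toll family genes, Tollo had 4 cDNAs and 18w had 2, and the rest had none. Inside the cell, 9 of 10 regulators of the pathway were crosslinked, with 121 cDNAs. They were led by smt3, which encodes SUMO, with 45 (24 with full-length Mei-P26, 20 with the NHL domain and 1 in controls), then Ulp1, a SUMO protease, with 22. Gprk2, a kinase, and lwr, the SUMO-conjugating enzyme, had 15 each.

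Gprk2 had 4, 0 and 2 cDNAs in full-length libraries, 0, 2 and 3 in NHL libraries and 3, 1 and 0 in controls. Its log2 fold change was -2.84 for full-length over control and -3.44 for NHL over control, with adjusted p of 0.733 and 0.758 in edgeR's quasi-likelihood test.

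In the Imd pathway, the other NF-κB route of fly immunity, 13 of 14 genes had cDNAs, 153 in all. Genes that act in ubiquitin conjugation, eff, Uev1A and ben, led with 53, 21 and 20. PGRP-LC, the receptor of that pathway, had 3, 0 and 6 cDNAs in full-length libraries, 1, 0 and 1 in NHL libraries and none in controls. Its log2 fold change between the baits was 2.21 (SE 1.03, adjusted p = 0.334 in edgeR's quasi-likelihood test). Of 13 antimicrobial peptide genes, the main outputs of both pathways, 8 had cDNAs, 41 in all, none enough to be tested, and Dro was first with 9, of which 7 came from NHL replicate 3.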

How the data were processed

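Cells were UV-crosslinked, and RNA bound to the FLAG-tagged baits was sequenced by iCLIP2 in 9 libraries. The authors demultiplexed reads, removed PCR duplicates, trimmed adapters, aligned each replicate to the genome of Ensembl release 98 (STAR 2.7.3a per the submitters' processing notes) and ran iCount, version not given in the sources used here. The deposited files hold raw counts, the distinct cDNAs at each crosslinked nucleotide, and a score table of the authors adds the false discovery rate of the peak caller, which is an adjusted p-value. Lists of clusters with flanks were not used.

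Counts were summed per gene and library, and rates are per 10000 cDNAs of the library. Gene names matched for 6725 of 6780 genes, and no cDNA on the 8 genes was shared with another gene. Distances use gene bounds of the RefSeq annotation (Release 6 plus ISO1 MT), inside which 61840 of 61853 crosslinked positions of matched genes lay. Exons and untranslated regions were not assigned. edgeR 4.0.16 (R 4.3.3) was fitted to all 9 libraries in 3 groups, with library totals as size. Genes of at least 10 cDNAs were tested, at a threshold of 0.05. A run on simulated counts, with the same spread for all genes, served as a check on the sign of calls and on false calls only. Groups were also compared by exact permutation tests. Other computations used Python 3.11.15, SciPy 1.17.1 and pandas 2.3.3. Alternatives were TMM scaling, DESeq2 1.42.0, other filters, positions in place of cDNAs, a replicate block and leaving out each replicate. The 8 genes, the further lists (named by their 3 genes with most cDNAs) and the tests were chosen with earlier results of these data known. The stretches of spz were chosen after its positions were seen.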

Additional observations from a re-analysis of the deposited data

How the results depend on the processing

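Between the baits, the log2 fold change of spz stayed above 0 in all 14 alternatives that tested it (0.94 to 2.00) with an adjusted p of edgeR or DESeq2 of 0.299 to 0.795, none past 0.05. Leaving out a control library bears little on this comparison (1.22 each time). edgeR's default filter kept 73 genes, and spz was not among them. For full-length over control the log2 fold change of spz ran between 1.11 and 6.60 (adjusted p 0.465 to 0.912), where the highest value has the controls at 0 and depends on the prior count. For NHL over control it changed sign and, with each replicate left out, ran between -0.30 and 5.38. The difference of mean spz rates, NHL minus control, was 0.863 per 10000 and ran between -0.468 and 3.53 with each replicate left out. The pooled spz ratio of full-length over NHL was 4.15 without NHL replicate 3 (chosen after seeing the data). Leaving out replicates also turned the sign for genes of few cDNAs, where the difference of mean rates was, for cact, -5.28 to 0.607 per 10000 (full-length minus control), -5.56 to 0.333 (NHL minus control) and -0.104 to 0.607 (full-length minus NHL), and for full-length minus NHL -0.250 to 0.227 for Myd88, -0.167 to 0.227 for tub and -1.10 to 0.111 for Dif. The share of full-length spz cDNAs near the NHL cluster was 28.2% within 20 nt.

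Counts of called genes moved more. For full-length over control, 2 genes were called, both lower with full-length Mei-P26, and the direction of the calls turned with the scaling: TMM scaling called 3 and DESeq2 10, all higher. With TMM scaling and edgeR's default filter 5 were called (3 higher and 2 lower), with no filter 0, and with a replicate left out 0 to 8. For NHL over control, 0 were called, against 20 with TMM scaling and 69 with DESeq2, all higher with the NHL domain. Between the baits, 47 were called, against 30 with the default filter and TMM scaling (12 higher and 18 lower, where 3 and 44 had been), 14 from positions and 7 to 61 with a replicate left out. The cause was not tested. With TMM scaling the median log2 fold change of all genes was 1.99 for full-length over control (0.88 without) and 2.05 for NHL over control (0.78 without). Deviations from the group mean had an r of -0.06 to 0.10 over 9 pairs of libraries of 1 number. Over 18 pairs of unlike number r was -0.06 to 0.06. The highest r was that of full-length replicate 3 with NHL replicate 3, the deepest libraries of the baits, so that a link between libraries of 1 number is not excluded. With a replicate block 2, 0 and 33 genes were called, and spz between the baits had a log2 fold change of 1.12 (adjusted p = 0.795 in edgeR's quasi-likelihood test). The exact tests could not pass 0.05 and say nothing of stability. With 3261 control cDNAs in all, most members' control levels could not be measured.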
